A study of Mus musculus with 16 samples.

Results

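The MHC class I and antigen processing genes were taken as a list of 10 genes, *H2-K1*, *H2-D1*, *B2m*, *Tap1*, *Tap2*, *Tapbp*, *Psmb8*, *Psmb9*, *Psmb10* and *Nlrc5*, out of 53354 genes with a TPM value (a transcript level scaled for length and depth). They were found by symbol in the TPM table and by the same Ensembl identifier in the table of estimated counts, and all 10 had enough reads to be tested. The cells were mIMCD3, a wild type mouse kidney line from the inner medullary collecting duct that was derived from a mouse carrying an SV40 transgene. All were grown on permeable filters for 10 days and then given doxycycline (DOX, 2 μg/mL) or its vehicle DMSO, with the medium changed every day. The 4 groups were DMSO at 3 days, DOX at 3 days, DMSO at 6 days and DOX at 6 days, with 4 libraries each. The sources do not say that equally treated libraries came from separate cultures, so the p-values measure the spread between these libraries, which may be technical, and the line is a single immortalized cell line.

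MHC class I molecules show short peptides from inside the cell to CD8 T cells, and nearly every nucleated cell carries them. A heavy chain pairs with beta-2-microglobulin in the endoplasmic reticulum, where the TAP transporter delivers peptides cut in the cytosol by the proteasome. Interferons raise many of these genes in epithelial cells, and the kidney tubule is known to increase class I during inflammation.

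Most of the genes lie close together. In GRCm38, with GENCODE M21 gene models, *Tapbp* (ENSMUSG00000024308, chr17:33915899-33929292, plus strand), *H2-K1* (ENSMUSG00000061232, chr17:33996017-34000347, minus), *Psmb9* (ENSMUSG00000096727, chr17:34181987-34187764, minus), *Tap1* (ENSMUSG00000037321, chr17:34187553-34197225, plus), *Psmb8* (ENSMUSG00000024338, chr17:34197721-34201454, plus), *Tap2* (ENSMUSG00000024339, chr17:34203527-34216321, plus) and *H2-D1* (ENSMUSG00000073411, chr17:35262730-35267499, plus) are in the MHC region of chromosome 17. *B2m* (ENSMUSG00000060802) is at chr2:122147686-122153083 on the plus strand. *Nlrc5* (ENSMUSG00000074151, chr8:94434356-94527272, plus) and *Psmb10* (ENSMUSG00000031897, chr8:105935735-105938444, minus) are on chromosome 8. The models of *Tap1* and *Psmb9* overlap on opposite strands by 212 exonic bases, which are 3.87% and 5.79% of their exonic bases. *Tapbp* shares 24.9% of its exonic bases with the antisense gene *Gm19412*, *Psmb8* 14.7% with *Gm20496*, and *Tap2* 14.1% with *Gm15821* and 4.36% with *Gm20496*. The libraries were made with a directional kit, but the strand setting of the quantification is not given in the sources used here, so reads of these pairs could have been split. Of the 31-base words in the annotated transcripts, 22.8% for *H2-K1* and 26.7% for *H2-D1* also occurred in transcripts of other genes. The leading other genes were class I genes. For the other 8 genes the share was at most 4.62%. These shares count distinct words and not reads, so they do not measure the error of the values. The MHC haplotype of the line is not stated in the sources used here, and the gene models are those of the reference genome.

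The start regions of the class I genes are printed because *H2-K1*, *H2-D1* and *B2m* are classical targets of shared control elements, and because *Tap1* and *Psmb9* start next to each other. Sequences are from RefSeq on GRCm38.p6, 5′ to 3′ on the strand of the gene, and windows (250 bases before to 50 after a start) existed for 8 of the 10 genes. *Tap2* and *Nlrc5* had none. Capitals mark letters that matched 1 of 5 motifs on either strand: AANNGAAAC (the core of an interferon-stimulated response element, ISRE), TTCNNNGAA (GAS, the gamma-activated site), GGGATTCCC (the core of the class I NF-kB site), TGACG (an X2 or CRE-like site) and CCAAT. The stretches run from 12 bases before the first match to 12 bases after the last, or to the end of the window. They lie at chr17:34000323-34000469 on the minus strand for *H2-K1*, chr17:35262912-35263057 on the plus strand for *H2-D1*, chr2:122147597-122147736 on the plus strand for *B2m* and chr17:34187322-34187486 on the plus strand for *Tap1*.
H2-K1: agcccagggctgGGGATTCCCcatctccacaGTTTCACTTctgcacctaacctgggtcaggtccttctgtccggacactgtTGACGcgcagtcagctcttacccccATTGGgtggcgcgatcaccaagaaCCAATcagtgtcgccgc
H2-D1: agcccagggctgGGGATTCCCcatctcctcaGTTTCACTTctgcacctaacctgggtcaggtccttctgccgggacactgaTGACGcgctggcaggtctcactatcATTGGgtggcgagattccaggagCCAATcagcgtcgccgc
B2m: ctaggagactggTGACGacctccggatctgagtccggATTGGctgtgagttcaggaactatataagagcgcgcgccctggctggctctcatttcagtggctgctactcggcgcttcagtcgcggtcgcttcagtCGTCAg
Tap1: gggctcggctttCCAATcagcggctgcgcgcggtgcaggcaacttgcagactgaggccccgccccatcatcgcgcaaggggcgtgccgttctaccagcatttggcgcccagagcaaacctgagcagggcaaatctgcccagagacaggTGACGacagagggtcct

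The heavy chain stretches matched at 130 of 146 aligned bases (89%) and held the same 5 matches in the same order: the NF-kB core, the ISRE core on the opposite strand, TGACG, and CCAAT once on each strand. Among 32851 windows, 5.77% held the ISRE core, 0.353% the NF-kB core, 20.8% TGACG, 37.4% CCAAT and 8.3% GAS. All 4 of the heavy chain motifs together were found in 5 windows (0.0152%) of 4 genes, *H2-K1*, *H2-D1*, *H2-Q7* and *Zfp263*. *B2m* held TGACG on each strand and CCAAT on the opposite strand, without the NF-kB core or the ISRE letters. The *Tap1* stretch is also the start region of *Psmb9* read on the other strand, so both genes hold the same TGACG and CCAAT matches. *Tapbp* held CCAAT on the opposite strand at 2 positions, *Psmb8* 1 GAS match, and *Psmb10* none of the 5. The motifs were chosen as known elements of class I promoters. A match describes letters and does not show binding.

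**Figure D1:**
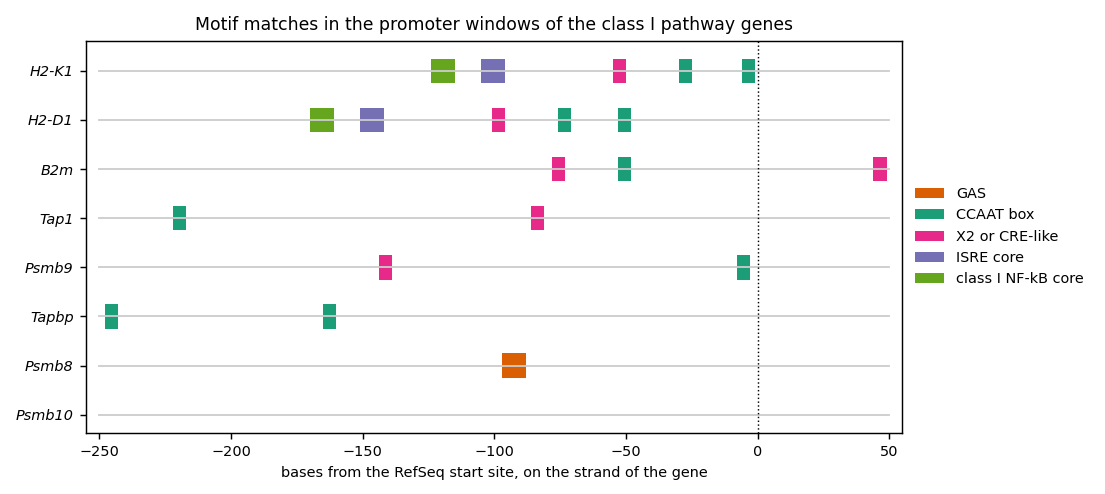
Positions of motif matches in bases from the RefSeq start site (x axis) in the promoter windows of the 8 genes that had one (rows, on the strand of the gene); each coloured block is 1 match. *H2-K1* and *H2-D1* hold the same 5 matches in the same order, and *Psmb10* holds none.

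The genes were expressed over a wide range without DOX. Mean TPM over the 8 DMSO libraries was 1149 ± 72.6 (SD, n = 8) for *B2m*, the light chain, which ranked 140 of 53354 genes. The heavy chains *H2-K1* and *H2-D1* followed at 505 ± 84.1 and 269 ± 28.8 TPM. *Psmb8*, a catalytic subunit of the immunoproteasome, was at 129 ± 7.37 TPM. The peptide editor *Tapbp* (tapasin) was at 59.3 ± 5.75 TPM. The other immunoproteasome subunits *Psmb10* and *Psmb9* were at 35.0 ± 3.47 and 27.0 ± 3.63 TPM, and the transporter subunits *Tap1* and *Tap2* at 18.8 ± 3.46 and 14.1 ± 1.72 TPM. *Nlrc5*, the transcriptional activator of class I genes, was lowest at 1.79 ± 0.683 TPM. This order held at 3 days alone and at 6 days alone. The ranges of the 8 libraries overlapped between the neighbours *Psmb10* and *Psmb9*, *Psmb9* and *Tap1*, and *Tap1* and *Tap2*, and between no other neighbours in this order. TPM is per length, and the values below, unless said otherwise, are TMM-scaled CPM, the estimated counts relative to library size, which serve to compare libraries.

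Library totals ranged from 16933343 to 23960860 counts. A count of 3, the limit that 0 counts allow, corresponded to 0.125 to 0.177 CPM, below every CPM of the 10 genes, and this covers counting error only. All 6 epithelial markers and all 3 kidney tubule markers were tested (*Krt8* was at 605 TPM and *Pax8* at 106 TPM in DMSO at 3 days), but 3 of 4 collecting duct markers were under 1 TPM in every group. Leukocyte markers were at or near 0 in all groups apart from *Csf1r* and *Cd52* (0.429 to 1.16 mean TPM), and 8 of 10 were under 1 TPM in every group. The summed leukocyte TPM was 8.71 to 11.5 in DMSO and 3.53 to 7.31 in DOX at 3 days. At 6 days it was 7.16 to 9.8 in DMSO and 3.4 to 5.82 in DOX. Most of the sum was *Csf1r* alone. Its mean TPM was 8.47 in DMSO and 3.64 in DOX at 3 days, and 6.68 and 3.85 at 6 days. The part of this sum in the results was not tested. *Csf1r*, the receptor of a macrophage growth factor, fell at 3 days (log2 fold change -0.82, SE 0.168, adjusted p = 0.00711) and at 6 days (-0.63, SE 0.17, adjusted p = 0.0342). The epithelial marker *Krt8*, a keratin, also fell at 3 days (-0.48, SE 0.0665, adjusted p = 0.00562) and at 6 days (-0.75, SE 0.0667, adjusted p = 6.65e-07). In bulk RNA, fewer cells of a type and less RNA per cell cannot be told apart.

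The classical heavy chains were called higher with DOX at 6 days and not at 3 days. *H2-K1*, a classical class I heavy chain, was at 482, 518, 525 and 577 CPM in DMSO and 624, 562, 573 and 533 CPM in DOX at 3 days, and at 590, 472, 457 and 454 CPM in DMSO and 804, 858, 911 and 954 CPM in DOX at 6 days. The groups overlapped at 3 days, and at 6 days every DOX library lay above every DMSO library. The change was 1.79-fold at 6 days (log2 0.84, SE 0.0844, edgeR adjusted p = 1.86e-06) against 1.09-fold at 3 days (log2 0.12, SE 0.084, adjusted p = 1). *H2-D1*, the second classical heavy chain, was at 409, 432, 416 and 451 CPM in DMSO and 456, 455, 456 and 455 CPM in DOX at 3 days. At 6 days it was at 448, 369, 366 and 365 CPM in DMSO and 564, 588, 657 and 660 CPM in DOX. It did not overlap between treatments at either time, but the 3-day difference was small (log2 0.09, SE 0.0702, adjusted p = 1), whereas it rose 1.60-fold at 6 days (log2 0.67, SE 0.0705, adjusted p = 1.17e-05). In both genes replicate 1 of DMSO at 6 days was above the other 3, and without it the 6-day changes were 0.94 and 0.75 on the log2 scale. Counts summed over 22 class I heavy chain genes before the fit, of which *H2-K1* and *H2-D1* hold 70.3%, rose by 0.72 (SE 0.0769, adjusted p = 8.97e-06) at 6 days and differed by 0.14 (SE 0.0765, adjusted p = 1) at 3 days.

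*B2m* had a different course. Its values were 632, 675, 648 and 627 CPM in DMSO and 773, 868, 878 and 854 CPM in DOX at 3 days, and 631, 664, 609 and 671 CPM in DMSO and 899, 860, 853 and 854 CPM in DOX at 6 days. DOX libraries were above DMSO libraries at both times. The difference was 1.31-fold at 3 days (log2 0.39, SE 0.0602, adjusted p = 0.0547), which missed the threshold, and 1.35-fold at 6 days (log2 0.43, SE 0.0602, adjusted p = 0.00849). The gene was called at 3 days without replicate 1 of DOX at 3 days, the lowest of its group (log2 0.42, adjusted p = 0.00931), and without replicate 1 of DMSO at 6 days (adjusted p = 0.0467). It was also called with RLE size factors (adjusted p = 0.0483) and with no fold threshold (adjusted p = 3.21e-05). With no fold threshold 5982 of 13234 tested genes were called at 3 days.

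Of the transporter genes, *Tap1* was called at both times and *Tap2* at 6 days only. A difference in timing between the 2 was not tested. *Tap1* was at 43.6, 45.8, 44.0 and 49.7 CPM in DMSO and 66.4, 64.3, 62.9 and 60.6 CPM in DOX at 3 days, and at 44.8, 37.7, 40.3 and 34.4 CPM in DMSO and 91.8, 93.8, 98.2 and 103 CPM in DOX at 6 days. It was separated at both times and rose 1.39-fold at 3 days (log2 0.47, SE 0.0695, adjusted p = 0.00881) and 2.46-fold at 6 days (log2 1.30, SE 0.0697, adjusted p = 4.92e-11). *Tap2*, its partner in the heterodimer, was at 30.2, 28.4, 29.7 and 32.4 CPM in DMSO and 39.7, 31.2, 31.2 and 29.3 CPM in DOX at 3 days, where only replicate 1 of DOX stood above the DMSO range. At 6 days it was at 31.2, 26.9, 26.0 and 26.3 CPM in DMSO and 43.5, 43.9, 50.2 and 50.2 CPM in DOX, with no overlap. *Tap2* rose 1.70-fold at 6 days (log2 0.77, SE 0.0859, adjusted p = 1.15e-05), and at 3 days the difference was 0.12 (SE 0.0869, adjusted p = 1). *Tapbp*, whose product bridges TAP and the heavy chain, was at 128, 130, 126 and 136 CPM in DMSO and 133, 125, 124 and 126 CPM in DOX at 3 days. At 6 days it was at 113, 120, 119 and 107 CPM in DMSO and 153, 163, 174 and 167 CPM in DOX. The 3-day groups overlapped (log2 -0.04, SE 0.0528, adjusted p = 1) and the 6-day rise was 1.43-fold (log2 0.52, SE 0.0527, adjusted p = 9.31e-05).

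**Figure D2:**
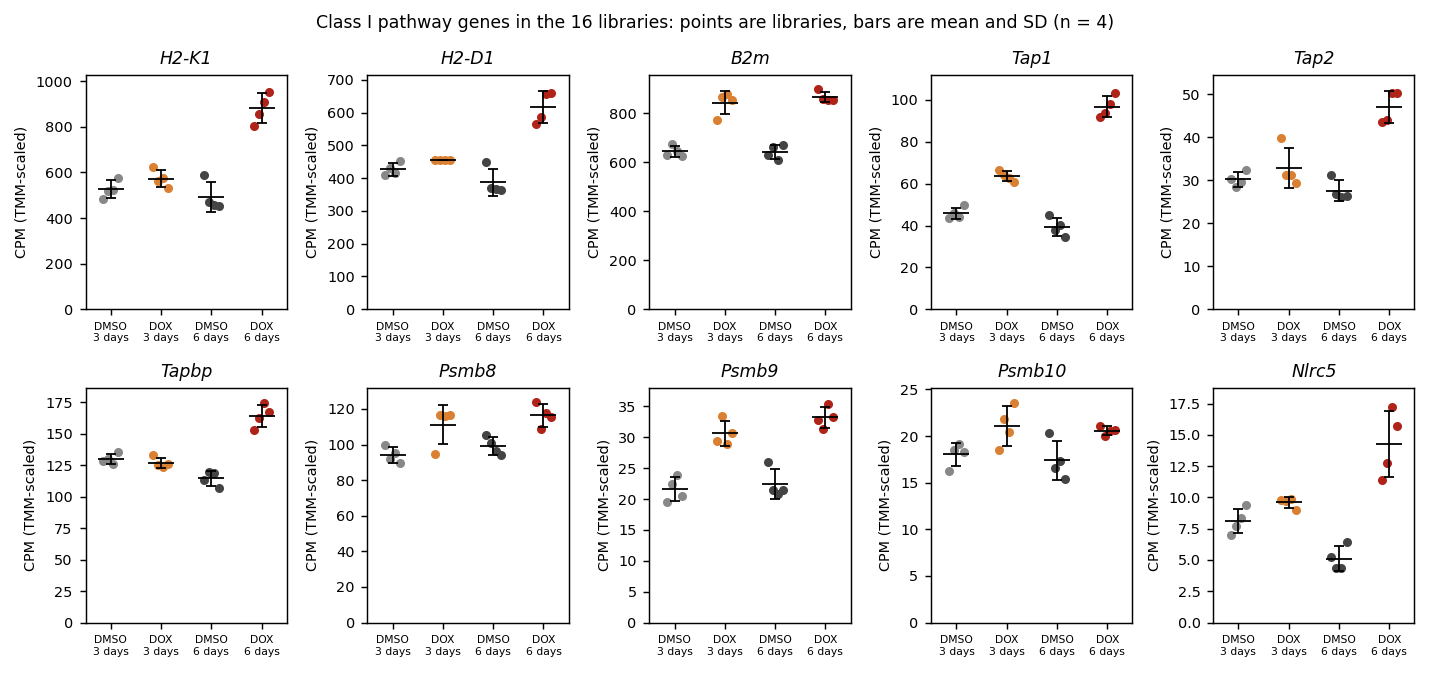
TMM-scaled CPM (y axes, from 0) of the 10 genes in the 4 groups (x axes); points are libraries, and bars are the mean and SD of 4 libraries. At 6 days the DOX libraries lie above all DMSO libraries in 9 of the 10 genes, and those of *H2-D1*, *B2m*, *Tap1* and *Psmb9* do so at 3 days too.

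The immunoproteasome subunits replace the constitutive catalytic subunits and favour peptides that fit class I. *Psmb9* was at 19.5, 22.5, 23.9 and 20.5 CPM in DMSO and 29.4, 33.4, 29.0 and 30.8 CPM in DOX at 3 days, and at 26.0, 21.4, 20.9 and 21.5 CPM in DMSO and 32.8, 31.3, 35.4 and 33.3 CPM in DOX at 6 days. It did not overlap at either time and rose 1.42-fold at 3 days (log2 0.50, SE 0.0786, adjusted p = 0.0078) and 1.48-fold at 6 days (log2 0.57, SE 0.0779, adjusted p = 0.000763). *Psmb8* was at 99.98, 92.1, 95.5 and 89.5 CPM in DMSO and 94.6, 116, 116 and 117 CPM in DOX at 3 days, with replicate 1 of DOX inside the DMSO range. At 6 days it was at 106, 101, 96.5 and 94.4 CPM in DMSO and 124, 109, 118 and 115 CPM in DOX, without overlap. Neither difference of *Psmb8* exceeded the 1.2-fold threshold (log2 0.24, adjusted p = 0.845 at 3 days and log2 0.23, adjusted p = 0.825 at 6 days). *Psmb10* was at 16.2, 18.5, 19.1 and 18.2 CPM in DMSO and 18.5, 21.8, 20.5 and 23.6 CPM in DOX at 3 days, and at 20.3, 16.5, 17.4 and 15.4 CPM in DMSO and 21.1, 20.0, 20.5 and 20.7 CPM in DOX at 6 days. Its groups overlapped at both times, and the differences were 0.22 (adjusted p = 0.88) and 0.24 (adjusted p = 0.697). Tested against no change instead of a 1.2-fold change, *Psmb8* and *Psmb10* passed at both times (adjusted p = 0.0064 and 0.0381 at 3 days, 0.00636 and 0.0208 at 6 days). By that test 5982 of 13234 tested genes passed at 3 days and 6702 at 6 days.

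*Nlrc5* had the largest log2 fold change of the 10 genes at 6 days in the edgeR fit of the counts. It was at 7.02, 7.75, 8.34 and 9.36 CPM in DMSO and 9.80, 9.74, 9.91 and 8.996 CPM in DOX at 3 days, and at 5.25, 4.36, 4.38 and 6.43 CPM in DMSO and 11.4, 12.7, 17.2 and 15.7 CPM in DOX at 6 days. The 3-day groups overlapped (log2 0.24, SE 0.132, adjusted p = 0.76), and at 6 days DOX was 2.80-fold higher (log2 1.48, SE 0.135, adjusted p = 9.1e-08). In CPM all 4 DMSO libraries at 6 days were below all 4 at 3 days, a difference that was not called (log2 -0.68, edgeR unadjusted p = 0.000896, adjusted p = 1) except with no fold threshold (adjusted p = 0.0348). In TPM the DMSO groups overlapped (1.125 to 3.063 at 3 days and 1.305 to 2.419 at 6 days). The DOX libraries at 6 days were also above every DMSO library of 3 days in CPM, but not in TPM (2.564 to 5.171 in DOX at 6 days). On the log2(TPM + 1) scale, which compresses a gene near 1 TPM, the 6-day difference was 0.82, below that of *Tap1* (1.24) and *H2-K1* (0.86).

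Of the 10 genes, 2 were called higher at 3 days and 0 lower, where 5.30% of 13234 tested genes were higher and 7.22% lower. At 6 days 8 of 10 were called higher and 0 lower, where 10.0% were higher and 11.6% lower. The median log2 fold change was 0.23 at 3 days and 0.62 at 6 days, and the median of all tested genes was 0.0031 and -0.00064. In CPM, libraries were fully separated upwards for 4 of 10 genes at 3 days, where 18.8% of all genes were separated upwards and 19.8% downwards. At 6 days 9 of 10 genes were separated upwards, where 22.1% were separated upwards and 20.9% downwards. In TPM the 3-day groups of *H2-D1*, *Tap1* and *Psmb9* overlapped. Their lowest DOX libraries were at 243.66, 21.007 and 28.289 TPM and their highest DMSO libraries at 318.76, 24.391 and 29.043 TPM. *B2m* stayed separated in TPM. The 3-day and 6-day comparisons share no library. In TPM the median over all tested genes was shifted. In log2(TPM + 1) the median over 13180 genes was -0.15 for the 3-day comparison and -0.05 for the 6-day comparison. Unadjusted for that shift, *H2-K1*, *H2-D1* and *Tap2* were slightly lower in DOX at 3 days (-0.01, -0.09 and -0.14), and relative to it they were 0.14, 0.06 and 0.01 higher. Limma on log2(TPM + 1) called 4 of the 10 genes at 6 days (*H2-K1*, *H2-D1*, *Tap1*, *Nlrc5*) and 0 at 3 days, where *Tap1* (0.21) and *Psmb9* (0.24) were not called, and it called 1307 genes in all at 6 days against 2856 with edgeR. At 6 days it missed *B2m*, *Tap2*, *Tapbp* and *Psmb9*, with adjusted p from 0.186 to 0.236.

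**Figure D3:**
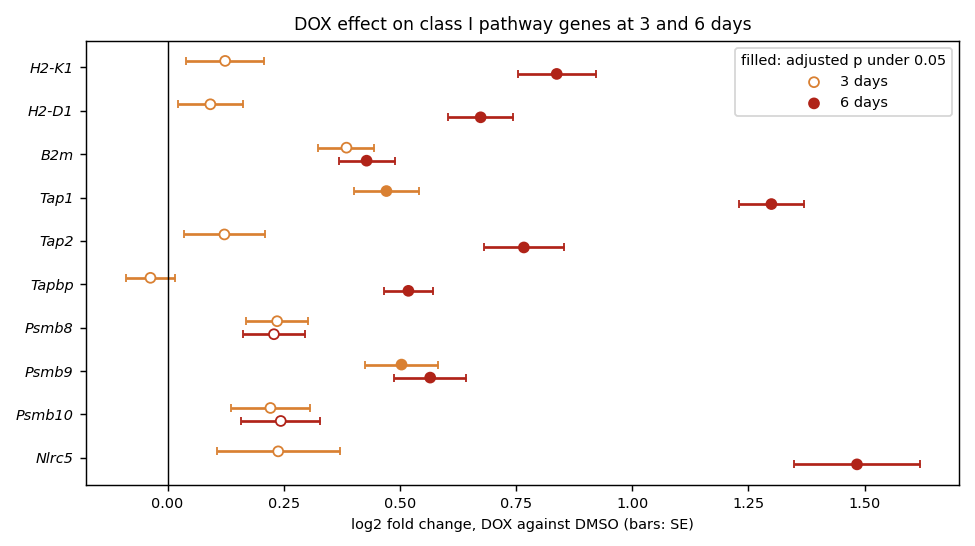
Log2 fold change of DOX against DMSO (x axis, bars are the SE of the edgeR fit) for each gene (rows) at 3 and 6 days; filled points passed the 1.2-fold test at an adjusted p of 0.05. At 3 days 2 points are filled and at 6 days 8, and the points of *B2m*, *Psmb8*, *Psmb9* and *Psmb10* lie nearly at the same place at both times.

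The difference between the DOX effects at 6 and 3 days was tested directly. It was positive and called for 6 of 10 genes, where 7.44% of tested genes had a higher and 9.58% a lower difference. On the log2 scale it was 1.25 (SE 0.189, adjusted p = 0.000496) for *Nlrc5*, 0.83 (SE 0.098, adjusted p = 7.14e-05) for *Tap1*, 0.71 (SE 0.119, adjusted p = 0.000865) for *H2-K1*, 0.64 (SE 0.122, adjusted p = 0.00208) for *Tap2*, 0.58 (SE 0.0994, adjusted p = 0.000978) for *H2-D1* and 0.56 (SE 0.0745, adjusted p = 0.000187) for *Tapbp*. No difference was called for *B2m* (0.04, SE 0.085), *Psmb9* (0.06, SE 0.111), *Psmb10* (0.02, SE 0.12) and *Psmb8* (-0.01, SE 0.0935). In limma on TPM the difference of *Nlrc5* was not called, at 0.71 (adjusted p = 0.134) with a pseudocount of 1 and 0.94 (adjusted p = 0.162) with 0.1. Over all genes 2252 differences were called, against 3787 without replicate 1 of DOX at 3 days. The count was 1369 without replicate 4 of DMSO at 3 days, 1467 without replicate 2 of DMSO at 6 days and 1480 without replicate 2 of DOX at 3 days. In the edgeR fit the light chain and the immunoproteasome subunits were the genes without a called difference between times, and heavy chains, transporter, tapasin and *Nlrc5* those with one.

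Over time in DOX, 3 of 10 genes were called higher at 6 days than at 3 days, where 1.37% of tested genes were higher and 2.58% lower. These were *H2-K1* (log2 0.62, SE 0.0841, adjusted p = 0.00303), *Tap1* (0.61, SE 0.0677, adjusted p = 0.000796) and *Tap2* (0.51, SE 0.0849, adjusted p = 0.0268). *Tap2* lost its call when any of 5 DOX libraries was left out (adjusted p from 0.0824 to 0.107), in DESeq2 (0.247) and in a fit of only the 8 libraries compared (0.0639). In limma on log2(TPM + 1) *H2-K1* (adjusted p = 0.0986) and *Tap2* (adjusted p = 0.313) were not called. Over all genes 522 were called, against 909 without replicate 1 of DOX at 3 days, and 325 to 342 without any 1 of replicates 2 to 4 of DOX at 3 days or replicates 2 and 3 of DOX at 6 days. *H2-D1* (0.44, adjusted p = 0.0563), *Nlrc5* (0.57, adjusted p = 0.0645) and *Tapbp* (0.37, adjusted p = 0.104) missed the threshold. Each of these 3 was called when replicate 1 of DOX at 6 days was left out, *H2-D1* and *Tapbp* also without replicate 1 of DOX at 3 days, *H2-D1* without replicate 1 of DMSO at 6 days and *Nlrc5* without replicate 4 of DMSO at 6 days, which gave 2 to 6 called genes over the 16 fits. In DMSO 0 of 10 genes were called between 6 and 3 days, and edgeR called 0% of tested genes in either direction. Of 13234 genes, 172 had an unadjusted p under 0.05, and DESeq2 and limma called 0. With no fold threshold 62 genes were called, and with no filter on low counts 6.

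Ratios between partners were computed per library from TPM, with exact two-sided permutation tests over 70 arrangements and adjustment over 10 tests. The smallest possible p was 0.0286, and 5 of the 10 tests reached it, which gave an adjusted p of 0.0571, so none passed. *Psmb9* made up 6.61% ± 0.565 (SD, n = 4) of *Psmb9* plus its constitutive counterpart *Psmb6* in DMSO at 6 days and 10.3% ± 0.842 in DOX, without overlap (exact permutation p = 0.0286, adjusted 0.0571). The share of *Psmb8* with *Psmb5* was 48.5% ± 1.54 in DMSO and 53.7% ± 0.926 in DOX at 6 days, and that of *Psmb10* with *Psmb7* was 10.11% ± 0.77 and 12.8% ± 0.28, both with the same exact p. At 3 days the *Psmb9* share was 6.94% ± 0.78 in DMSO and 8.23% ± 0.538 in DOX (exact p = 0.0571, adjusted 0.0952), and the other 2 shares had exact p of 0.657 and 0.143. *Tap1* over *Tap2* was 1.39 ± 0.0969 in DMSO and 1.81 ± 0.201 in DOX at 3 days, and 1.27 ± 0.129 and 2.06 ± 0.0845 at 6 days, separated at both times (exact p = 0.0286 each). *B2m* over the sum of *H2-K1* and *H2-D1* was 1.44 ± 0.14 in DMSO and 1.69 ± 0.19 in DOX at 3 days, and 1.58 ± 0.259 and 1.18 ± 0.145 at 6 days, higher with DOX at the first time and lower at the second, with overlap at both (exact p = 0.114 and 0.0857). The constitutive partners were not called at either time, with log2 differences of 0.26, 0.17 and 0.15 at 3 days and -0.10, -0.14 and -0.13 at 6 days for *Psmb5*, *Psmb6* and *Psmb7*. Computed from CPM, 7 of the 10 ratios passed, each with adjusted p = 0.0408. They were the 5 that reached the smallest p from TPM and 2 more at 3 days. The added ones were the *Psmb9* share and *B2m* over the sum of the heavy chains, the latter 0.142 higher in DOX.

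**Figure D4:**
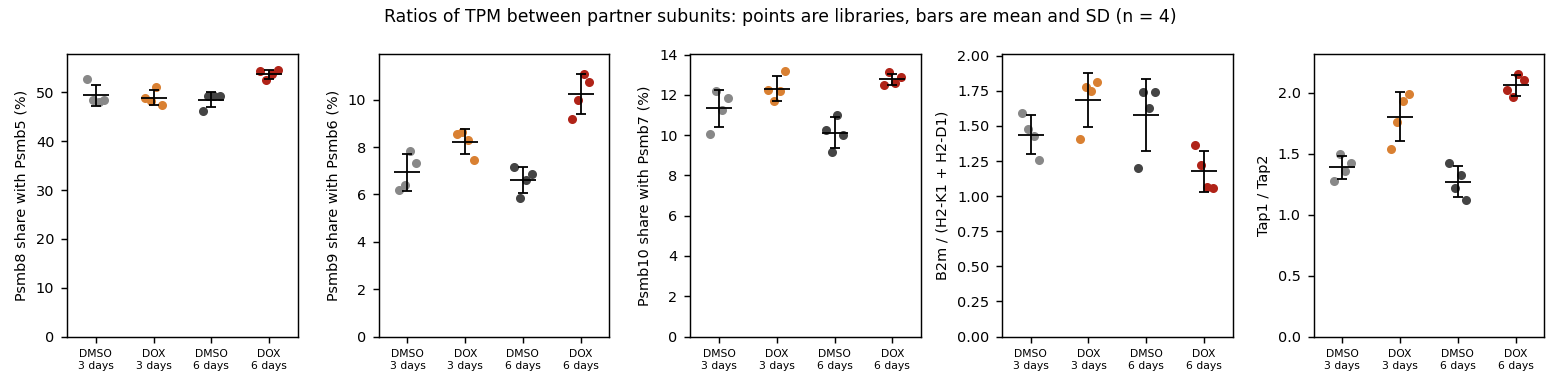
Ratios of TPM between partner genes (y axes, from 0; 3 shares in percent and 2 quotients) in the 4 groups (x axes); points are libraries, and bars are the mean and SD of 4 libraries. At 6 days the 3 immunoproteasome shares and *Tap1* over *Tap2* are higher in every DOX library than in every DMSO library.

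The rest of the pathway was described from 11 lists of 185 genes, of which 150 were tested. Each list count stands beside shares of all tested genes. These were 5.30% higher and 7.22% lower at 3 days, and 10.0% and 11.6% at 6 days. Of 12 tested other class I heavy chains, 2 were higher at 3 days and 9 at 6 days, and none was lower. *H2-Q7* rose by 1.31 on the log2 scale at 6 days (SE 0.0954, adjusted p = 6.49e-09) and by 0.46 at 3 days (SE 0.0946, adjusted p = 0.0485), with mean TPM of 25.6, 31.8, 23.8 and 53.2 in DMSO and DOX at 3 days and DMSO and DOX at 6 days. *H2-Q6* rose by 0.93 (SE 0.104, adjusted p = 4.96e-06) at 6 days. *H2-M3*, which presents formylated peptides, rose by 0.56 (SE 0.0962, adjusted p = 0.00728) at 3 days and by 0.82 (SE 0.092, adjusted p = 8.08e-06) at 6 days. Reads within the class I family may be divided differently between these genes. Of 7 tested class I-like molecules, 5 were higher and 1 lower at 6 days. *Hfe*, a regulator of iron uptake, rose by 0.76 (SE 0.12, adjusted p = 0.000455) at 6 days and by 0.56 (adjusted p = 0.0301) at 3 days. *Procr*, the protein C receptor, rose by 0.60 (SE 0.149, adjusted p = 0.0244) at 6 days. *Ulbp1*, an NKG2D ligand, fell by 1.15 (SE 0.247, adjusted p = 0.00286) at 6 days. Its level was low, at 0.809 ± 0.422 mean TPM in DMSO and 0.423 ± 0.272 in DOX, with at most 41.4 counts in any library. The NKG2D ligands *Raet1d* (0.62, adjusted p = 0.0041) and *H60b* (0.64, adjusted p = 0.0124) rose at 3 days. Both were also higher at 6 days (0.58, adjusted p = 0.00401, and 0.54, adjusted p = 0.0297).

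Of 17 peptide loading and folding genes, 2 were called higher and 3 lower at 6 days, and 0 higher and 3 lower at 3 days. The shares of all tested genes were 10.0% higher and 11.6% lower at 6 days, and 5.30% and 7.22% at 3 days. The difference between times was called higher for 9 of the 17 and lower for 2, where 7.44% and 9.58% of all tested genes were. *Calr*, the calreticulin chaperone of the loading complex, fell at 3 days (-0.82, SE 0.054, adjusted p = 1.92e-08) and at 6 days (-0.54, SE 0.0538, adjusted p = 4.16e-05). *Hsp90b1*, an endoplasmic reticulum chaperone, fell at 3 days (-0.64, SE 0.0614, adjusted p = 1.77e-05) and at 6 days (-0.46, SE 0.0612, adjusted p = 0.00317). *Sec61g*, a translocon subunit, fell at 6 days (-0.57, SE 0.124, adjusted p = 0.0148). *Erap1*, which trims peptides in the endoplasmic reticulum, rose at 6 days (0.55, SE 0.0626, adjusted p = 0.000157), as did the glycoprotein glucosyltransferase *Uggt2* (0.59, SE 0.111, adjusted p = 0.0056). Of 10 cytosolic peptidases, 3 were higher at 6 days, among them *Lap3* (0.47, SE 0.0628, adjusted p = 0.00277), a leucine aminopeptidase, and *Prep* (0.51, SE 0.0567, adjusted p = 0.000254). At 3 days 1 was higher, *Lap3* (0.46, adjusted p = 0.00777).

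The constitutive proteasome was described by its parts. For comparison, 5.30% of all tested genes were higher and 7.22% lower at 3 days, and 10.0% and 11.6% at 6 days. Of 14 genes of the core, 0 were higher and 1 lower at 6 days (*Psma1*, -0.42, SE 0.0819, adjusted p = 0.0432) and 0 were called at 3 days. Their median log2 fold change was 0.19 at 3 days and -0.19 at 6 days. For 13 of 14 the effect at 6 days was called lower than that at 3 days, where 9.58% of all tested genes were. Among 11 activator and assembly genes 3 were higher at 3 days, led by the assembly chaperones *Psmg4* (0.66, adjusted p = 0.0109) and *Psmg2* (0.53, adjusted p = 0.00194), and 0 were called at 6 days. Of 20 genes of the 19S particle, *Psmc2*, an ATPase subunit, rose (0.38, adjusted p = 0.0495) and *Psmd6* fell (-0.47, adjusted p = 0.00399) at 6 days. *Psmc2* was also higher at 3 days (0.46, adjusted p = 0.0082).

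**Figure D5:**
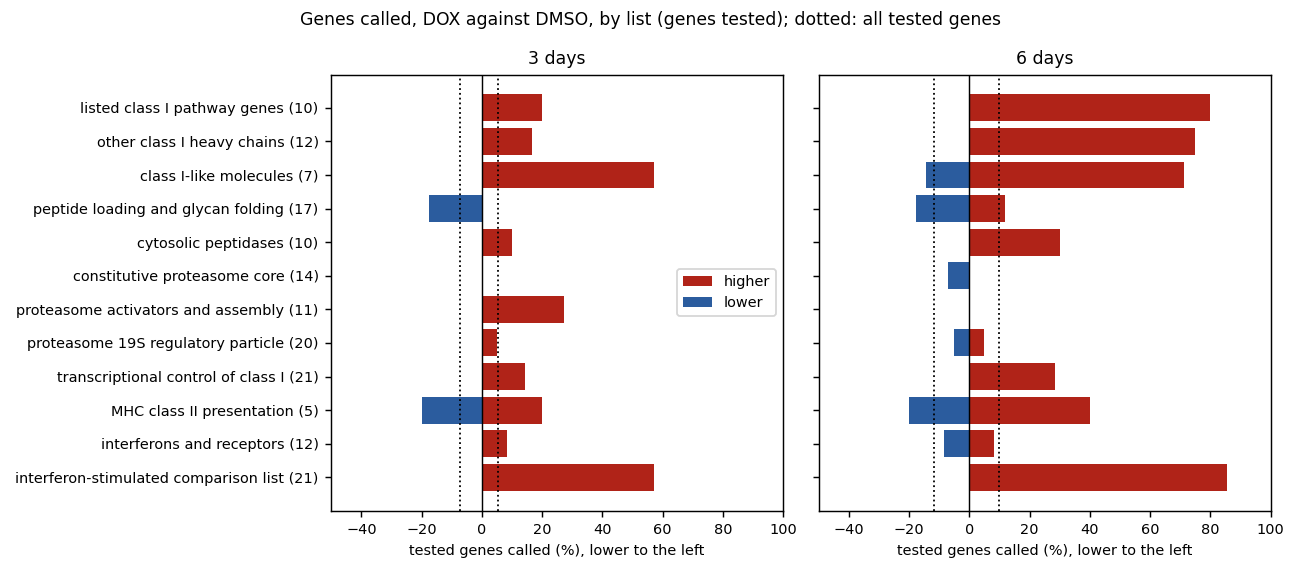
Percent of the tested genes of each list (rows, number tested in parentheses) called higher (right) or lower (left) in DOX than in DMSO at 3 days and at 6 days (x axes); dotted lines give the percent of all 13234 tested genes. The 10 class I pathway genes, the other heavy chains and the interferon-stimulated genes reach the farthest to the right at 6 days.

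Of 21 tested genes of transcriptional control, 3 were higher at 3 days and 6 at 6 days, and none was lower. The shares of all tested genes were 5.30% higher and 7.22% lower at 3 days, and 10.0% and 11.6% at 6 days. *Irf7*, an interferon regulatory factor, rose by 0.57 (SE 0.0718, adjusted p = 0.000778) and 0.85 (SE 0.0721, adjusted p = 1.65e-07), and *Irf9*, another factor of that family, by 0.49 (SE 0.0494, adjusted p = 0.000321) and 0.55 (SE 0.0491, adjusted p = 1.17e-05) at 3 and 6 days. Of 21 tested genes of an interferon-stimulated comparison list, 12 were higher at 3 days and 18 at 6 days, and none was lower. *Isg15*, a ubiquitin-like protein, rose by 0.85 (adjusted p = 2.61e-05) and *Usp18*, which removes it from proteins, by 0.71 (adjusted p = 2.76e-06) at 3 days, and *Mx1* by 2.08 (adjusted p = 1.69e-05) and *Iigp1* by 1.45 (adjusted p = 2.32e-06) at 6 days, both of them antimicrobial GTPases. *Isg15* (0.50, adjusted p = 0.0154) and *Usp18* (0.66, adjusted p = 3.67e-06) were also higher at 6 days. *Mx1* and *Iigp1* were not called at 3 days. The level of *Mx1* was low, at 0.6835 ± 0.424 mean TPM in DMSO and 2.25 ± 0.557 in DOX at 6 days. In DMSO at 3 days it was at 1.24 ± 0.837 mean TPM, and no library held more than 93.1 counts. Of 12 tested interferon and receptor genes, *Ifnar2*, a chain of the type I interferon receptor, rose (0.46, adjusted p = 0.00226) and the kinase gene *Jak2* fell (-0.40, adjusted p = 0.0239) at 6 days. *Ifnar2* was also higher at 3 days (0.41, adjusted p = 0.0254). *Ifnb1*, named after its values were seen, was at 1.51 ± 0.142 and 1.78 ± 0.385 TPM in DMSO and DOX at 3 days and at 1.89 ± 0.397 and 2.26 ± 0.596 TPM at 6 days (n = 4 each), with at most 31 counts in a library and no call (adjusted p = 0.533 and 0.632). Of 5 tested MHC class II genes, 2 were higher and 1 lower at 6 days. *H2-DMb1*, an exchange factor subunit, rose by 0.46 (adjusted p = 0.0149). *Cd74*, the invariant chain, rose from 3.38 to 9.49 mean TPM (log2 1.53, SE 0.143, adjusted p = 1.26e-07), and *H2-DMb2*, another such subunit, fell from 1.35 to 0.153 mean TPM (adjusted p = 2.71e-07), with at most 29.3 counts in any library, so no fold is given. At 3 days *Cd74* was also called higher (log2 1.10, SE 0.154, adjusted p = 0.000123) and *H2-DMb2* lower (adjusted p = 0.00229).

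Across the 16 libraries, the 45 pairs among the 10 genes had a median Pearson r of log2 CPM of 0.784 (0.430 to 0.982). With the group means removed the median was 0.314 (-0.692 to 0.889). The points share 4 groups, library depth and scaling, and the coefficients are descriptions. Among all other tested genes, those most like each gene by r over 16 libraries were *Man2b2* for *H2-K1* (0.984) and for *H2-D1* (0.982), *Ifi211* for *B2m* (0.986), *Tor3a* for *Tap1* (0.994), *Trim26* for *Tap2* (0.982), *Itpkb* for *Tapbp* (0.959), *Fdx1l* for *Psmb8* (0.955), *Fbxl6* for *Psmb9* (0.969), *Zfp771* for *Psmb10* (0.919) and *Helz2* for *Nlrc5* (0.982).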

How the data were processed

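Poly(A) RNA of the 16 mIMCD3 libraries was sequenced as 2 × 75 bp pairs. Per the labels, the authors aligned reads to GRCm38.p6 with STAR 2.6.0c; the submitters' processing notes name Salmon 0.14.10. The authors deposited estimated counts per gene (not normalized, 54393 genes) and TPM (length- and depth-scaled, 53354 genes).

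Estimated counts were rounded. The 13234 genes that reached 1 CPM in 4 or more libraries were fitted with edgeR 4.0.16 (TMM, robust quasi-likelihood, all 16 libraries) in R 4.3.3. Groups, from the sample labels, were compared by glmTreat at 1.2-fold, and the difference of effects by glmQLFTest, with Benjamini-Hochberg adjustment over all tested genes at 0.05. The SE is approximated from the fit. Ratios used exact permutation tests. Alternatives were RLE factors, DESeq2 1.42.0, limma 3.58.1 on log2(TPM + 1) and log2(TPM + 0.1), other filters, no fold threshold, a replicate block, a fit of only the 8 libraries compared and leaving out each library. On simulated counts for DOX against DMSO at 6 days (13080 genes, 2-fold changes), 89.7% of 195 changed genes were recovered. Smaller changes were not simulated, so the rate applies to 2-fold changes only.

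The 10 genes and all lists were chosen with earlier results of these data known. Besides the 10 genes, up to 2 rises and 2 falls per list were named, or the 2 genes with the highest TPM where none was called, and up to 3 genes most correlated with each gene; the closest is given. Values of 1 listed gene are left out.

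Replicate numbers recur in each group, but only as numbers. Deviations of equally numbered DOX and DMSO libraries had a mean correlation of -0.0955 (3 days) and -0.122 (6 days).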

Additional observations from a re-analysis of the deposited data

Results flagged for a closer look

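The DOX effect differed between times, by the interaction test of edgeR, for 6 of the 10 genes. The effect at 6 days minus that at 3 days was 0.71 for *H2-K1* (adjusted p = 0.000865), 0.58 for *H2-D1* (0.000978), 0.83 for *Tap1* (7.14e-05), 0.64 for *Tap2* (0.00208), 0.56 for *Tapbp* (0.000187) and 1.25 for *Nlrc5* (0.000496), on the log2 scale. In limma on TPM the difference of *Nlrc5* was not called (adjusted p = 0.134 with a pseudocount of 1 and 0.162 with 0.1). The cause was not tested.

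Among 80 sets of 4 libraries (10 genes, 4 groups, CPM and TPM), 10 held a library with a gap to its nearest neighbour above 0.829 of the whole range, and chance flags about 1 in 20. The same libraries recurred. Replicate 1 of DMSO at 6 days was the highest of its group in CPM for *H2-K1* (590.4, others 453.8 to 471.9), *H2-D1* (448.2, others 365 to 368.7), *Tap2* (31.17, others 26.02 to 26.86) and *Psmb9* (26.03, others 20.86 to 21.48). Replicate 1 of DOX at 3 days was the highest in TPM for *Tap1* (28.35, others 21.01 to 22.15) and *Tapbp* (65.42, others 49.49 to 50.26), and the lowest in CPM for *Psmb8* (94.57, others 116.2 to 116.7). Replicate 1 of DOX at 6 days was the highest in CPM for *B2m* (898.5), replicate 2 of DOX at 6 days the lowest in TPM for *Psmb8* (142.9, others 153.1 to 153.2), and replicate 4 of DOX at 3 days the highest in TPM for *Psmb10* (41.1, others 35.27 to 35.92).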

How the results depend on the processing

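The 8 genes called at 6 days and the 6 called for the difference between times kept their number under RLE factors, DESeq2, both other filters, the replicate block and the omission of any 1 library. The replicate block gave 2 genes at 3 days, 8 at 6 days, 3 for DOX over time and 6 for the difference, and changed no call. Since the numbers are shared without a stated pairing, this is a check on numbering only.

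Without a fold threshold 5 genes were called at 3 days, 6 for DOX over time and 1 for DMSO over time (*Nlrc5*). Over all 13234 tested genes this setting called 5982, 4000 and 62. Without a filter on low counts 5 were called for DOX over time, and 611 of 34114 genes in all. Limma on TPM, with either pseudocount, called 0 genes at 3 days, 4 at 6 days and 1 for DOX over time, and 5 for the difference, where *Nlrc5* was lost (adjusted p = 0.134 and 0.162). With a pseudocount of 1 it called 701, 1307, 86 and 659 of 13180 genes in all. With 0.1 it called 909, 1527, 111 and 631. The cause was not tested beyond the shift of the median over all tested genes in TPM. Leaving out 1 library gave 2 to 3 genes at 3 days and 2 to 6 for DOX over time. Over all 13234 tested genes these fits called 1366 to 2295 and 325 to 909. From CPM, 7 ratios passed and from TPM 0, with a lowest adjusted p of 0.0408 and 0.0571 in the exact permutation tests. The lowest adjusted p depends on how many tests reach the smallest possible p. On the gene strand alone there were 10 pairs of gene and motif in place of 16.

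Directions turned only for differences that were not called. In limma on TPM with pseudocounts of 1 and 0.1 the 3-day differences were -0.0066 for *H2-K1* with both, -0.0855 and -0.0857 for *H2-D1* and -0.1439 and -0.1546 for *Tap2*, and the difference between times of *Psmb8* was 0.1068 and 0.1074. Without a low-count filter that of *Psmb8* was 0.033. Over left-out libraries it ranged from -0.0771 to 0.0255 for *Psmb8* and from -0.0348 to 0.1031 for *Psmb10*. Precision is limited by 4 libraries a group, by the low level of *Nlrc5* and by reads shared within the class I family.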
